A study of Mus musculus with 13 samples.

Results

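Epas1 encodes the hypoxia-inducible transcription factor subunit HIF-2alpha, and it is described here with 9 other genes of the oxygen-sensing pathway, Hif1a, Arnt, Egln1, Egln2, Egln3, Vhl, Hif1an, Vegfa and Bnip3, in mouse male germ cells that carry different alleles of Tet1. The 10 genes were taken by name from a count table of 35976 gene symbols, and all 10 passed the filter on low counts, which left 14702 genes for testing. Epas1 was selected on its measured level in these same libraries, which was far lower in the Tet1 knockout and not in the V mutant. Its values in all genotypes are therefore a description, given with no test. The other 9 genes were named for their place in the pathway, with earlier results of these data known.

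HIF transcription factors are dimers of an oxygen-labile alpha subunit, mainly HIF1A or EPAS1, and the stable beta subunit ARNT. In oxygen, the prolyl hydroxylases encoded by Egln1, Egln2 and Egln3 modify the alpha subunit, VHL then marks it for degradation, and the asparaginyl hydroxylase encoded by Hif1an blocks its activity. In low oxygen the alpha subunit persists and switches on genes of glycolysis, blood vessel growth and mitochondrial turnover, so control of the pathway is largely at the level of protein, which these data do not measure. In mice EPAS1 has been described as an activator of Pou5f1, the gene behind the Oct4-GFP reporter of germ cells, and embryos without it as having fewer primordial germ cells. The EGLN and TET proteins belong to the same enzyme family, the dioxygenases that use oxygen and 2-oxoglutarate.

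RNA was sequenced from primordial germ cells of male embryos at E14.5, sorted by an Oct4-GFP reporter that all groups share, with 3 libraries for each of 4 genotypes. KO is a knockout of Tet1. HxD is known as a catalytically dead form of the enzyme. V is known as a form that oxidises methylcytosine to hydroxymethylcytosine and then stops, and WT is the wild type. The labels give neither the zygosity of the alleles nor the part of the gene that the knockout lacks, nor whether replicates are separate embryos, litters or pools. A p-value here therefore weighs a difference against the spread of these libraries alone, which may be technical. Library totals ran from 13584484 to 29641963 counts. Tet1 (chromosome 10, 62804570 to 62908996) had 213 ± 11.8 CPM in KO and 608 ± 27.0 CPM in WT (SD, n = 3 each), and every KO library lay below every WT library. Levels are given as CPM, read counts divided by library size with TMM factors. WT 3 and V 3 stood apart from the other libraries on the first and the third principal component, with scores of 109 and 95.6, and HxD 2 lay farthest out on the second, at 77.1 beside 29.6 for the next library. Values without WT 3 and V 3, and without all 3, are given where they end a call. The germ cell markers summed to 3201 to 3458 CPM in KO and 2968 to 3956 in HxD. The sums were 3489 to 3900 CPM in V and 4423 to 4841 in WT. In each library 9 or 10 of 10 had a count. They were not all abundant, as Nanos3 and Nanos2 averaged 9.08 and 4.55 CPM and Nanos2 had 0 reads in 4 libraries.

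Epas1 (chromosome 17, 86753700 to 86833410, plus strand, in GRCm38 with the GENCODE M21 annotation) was lowest in KO. It had 1.41, 6.16 and 6.72 CPM in the KO libraries, from 32, 131 and 176 reads. The HxD libraries had 21.8, 18.9 and 31.9 CPM, from 637, 441 and 494 reads. The V libraries had 47.8, 18 and 37.5 CPM, from 1068, 398 and 511 reads, against 37.1, 51.6 and 42.4 CPM in the WT libraries, from 741, 1135 and 967 reads. All KO libraries lay below all other libraries, all HxD libraries lay below all WT libraries, and the V libraries ran from just below the lowest HxD library to within the WT range. In bulk RNA, fewer cells of a type and less RNA per cell cannot be told apart.

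The group means of Epas1 were 4.76 ± 2.91 CPM in KO, 24.2 ± 6.85 in HxD, 34.4 ± 15.1 in V and 43.7 ± 7.33 in WT (SD, n = 3 each). The order from low to high was thus KO, HxD, V and WT. The V mean differed from either neighbour by less than the SD of the V libraries. As a description, the KO mean was 9.18-fold lower than the WT mean and the V mean 1.27-fold lower, with log2 fold changes of -3.20 and -0.34. No exon of another annotated gene overlaps those of Epas1, so its counts are not shared with a neighbour in that annotation.

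The HxD libraries took no part in the choice of Epas1, but those they are set against did, so these differences too are given with no test. The HxD mean was 1.81-fold lower than the WT mean, a log2 fold change of -0.85, and 5.08-fold higher than the KO mean, a log2 fold change of 2.34. For V against HxD it was 0.51, with overlapping libraries.

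**Figure D1:**
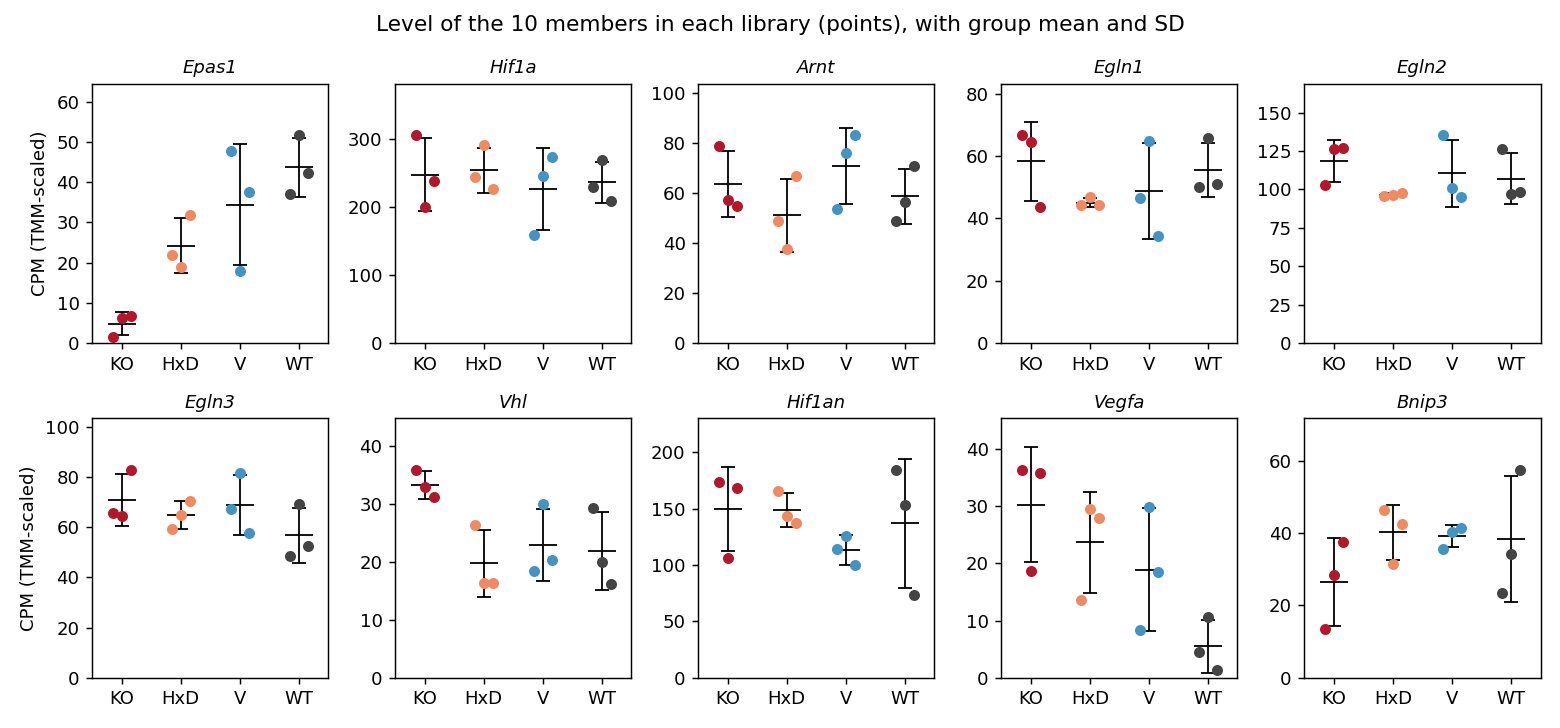
Level of the 10 genes in CPM after TMM scaling (vertical axis, from 0) in each library (points), by Tet1 genotype (horizontal axis), with the group mean and SD as bars (n = 3). Epas1 sits at 1.41 to 6.72 CPM in KO, below all other libraries, and Vegfa at 1.27 to 10.6 CPM in WT, below all KO and HxD libraries, while the groups of most other genes overlap.

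EPAS1 and HIF1A are the best known alpha subunits, and their transcripts can be set against each other per length, as CPM per kilobase of annotated exon. In WT, Hif1a had 39.9 ± 5.12 CPM per kilobase and Epas1 7.82 ± 1.31 (SD, n = 3). Epas1 made up 0.487%, 3.15% and 2.89% of the sum of both transcripts in the KO libraries, 8.61%, 6.41% and 13.0% in HxD, 24.0%, 7.17% and 12.7% in V, and 14.6%, 16.9% and 17.6% in WT. Hif1a was therefore above Epas1 in every library, and the share of Epas1 was lowest in the 3 KO libraries. The mean share was 2.18 ± 1.47% in KO, 9.34 ± 3.34% in HxD, 14.6 ± 8.61% in V and 16.4 ± 1.58% in WT. Since the share is computed from the gene that was picked, it was not tested.

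**Figure D2:**
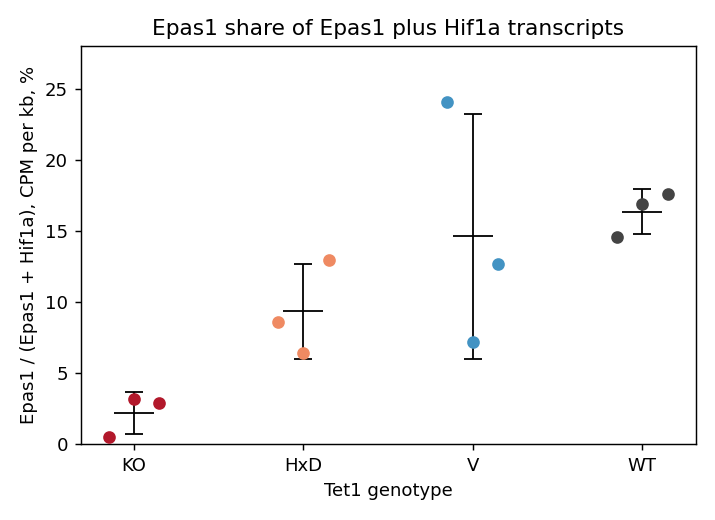
Share of Epas1 among the transcripts of Epas1 and Hif1a, in percent of their summed CPM per kilobase of exon (vertical axis), for each library (points) by genotype, with mean and SD (n = 3). The KO libraries lie between 0.487% and 3.15% and the WT libraries between 14.6% and 17.6%, with V the most spread.

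Neither Hif1a nor the beta subunit gene differed detectably between genotypes. Here and below, adjusted p-values come from edgeR's quasi-likelihood test, adjusted by Benjamini-Hochberg over all 14702 genes, with a threshold of 0.05, and intervals are 95% intervals of that fit. Hif1a (chromosome 12, 73901375 to 73947530, plus strand) had 199 to 304 CPM in KO, 226 to 290 in HxD, 159 to 273 in V and 209 to 268 in WT. In KO its log2 fold change was 0.07, with an edgeR adjusted p of 1 and an interval from -0.32 to 0.46. It was 0.10 in HxD (-0.29 to 0.50) and -0.06 in V (-0.45 to 0.33). Arnt (chromosome 3, 95434388 to 95497240, plus strand) had 54.8 to 79.0 CPM in KO, 37.8 to 66.9 in HxD, 53.6 to 83.2 in V and 49.0 to 70.8 in WT. The log2 fold change of Arnt was 0.11 in KO (95% interval -0.45 to 0.68), -0.20 in HxD (-0.76 to 0.36) and 0.27 in V (-0.29 to 0.83). The groups of both genes overlapped in all comparisons with WT. The exons of Hif1a share 8.11% of their bases with those of predicted genes on either strand, and the strand setting of the counting is not given in the sources used here.

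Hif3a, the gene of a further alpha subunit that is less well understood, was not among the 10 and is named here after its values were seen. It had 4.95, 1.79 and 2.44 CPM in KO, 15.7, 1.63 and 13.9 in HxD and 8.36, 1.18 and 3.08 in V, against 16.4, 5.28 and 17.9 CPM in WT. All KO libraries lay below all WT libraries, the highest of them just below WT 2, while HxD and V overlapped with WT. None of these differences was called, with log2 fold changes of -2.11 in KO (SE 1.10, 95% interval -4.35 to 0.14, edgeR adjusted p = 0.623), -0.34 in HxD (adjusted p = 1) and -1.65 in V (adjusted p = 0.865). The share of Epas1 given above leaves Hif3a out.

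Among the oxygen sensors, each of the 3 prolyl hydroxylase genes passed the test in 0 of 6 comparisons. Egln1 (chromosome 8, 124908587 to 124949324, minus strand), the main hydroxylase of HIF1A in most tissues, had 43.7 to 66.6 CPM in KO, 44.2 to 46.8 in HxD, 34.4 to 65.0 in V and 50.1 to 65.7 in WT. The HxD libraries of Egln1 lay below those of WT (log2 fold change -0.30, 95% interval -0.89 to 0.28, edgeR adjusted p = 0.875), and the other groups overlapped with WT. Egln2 (chromosome 7, 27158658 to 27166802, minus strand) had 103 to 127 CPM in KO, 95.7 to 97.6 in HxD, 95.1 to 135 in V and 96.7 to 126 in WT, with log2 fold changes of 0.15 in KO (-0.27 to 0.56), -0.15 in HxD (-0.56 to 0.26) and 0.04 in V (-0.37 to 0.46). Egln3 (chromosome 12, 54178981 to 54203860, minus strand), which is itself induced by HIF, had 64.4 to 82.8 CPM in KO, 59.4 to 70.6 in HxD, 57.5 to 81.5 in V and 48.5 to 69.3 in WT. The log2 fold changes of Egln3 against WT were 0.32 in KO (-0.19 to 0.83), 0.19 in HxD (-0.31 to 0.70) and 0.28 in V (-0.23 to 0.78), so modest rises were neither called nor excluded.

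Hif1an (chromosome 19, 44562850 to 44576274, plus strand), whose product hydroxylates an asparagine of the alpha subunit and so keeps co-activators away, had 106 to 174 CPM in KO, 137 to 166 in HxD, 99.7 to 126 in V and 73.4 to 184 in WT. The WT libraries of Hif1an covered the whole range of the mutants, with the lowest value in WT 3, and the log2 fold changes were 0.13 in KO (95% interval -0.36 to 0.62), 0.12 in HxD (-0.37 to 0.61) and -0.27 in V (-0.76 to 0.22). Vhl (chromosome 6, 113623959 to 113631633, plus strand), the substrate receptor of the ligase that ubiquitinates hydroxylated alpha subunits, had 35.8, 32.8 and 31.2 CPM in KO, against 29.3, 20.1 and 16.2 CPM in WT. Vhl had 16.3 to 26.4 CPM in HxD and 18.4 to 30.0 CPM in V, so the KO libraries lay above all others. The difference between KO and WT was not called, with a log2 fold change of 0.61, an interval from -0.25 to 1.46 and an edgeR adjusted p of 0.75.

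The targets Vegfa and Bnip3 had different patterns. Vegfa (chromosome 17, 46016993 to 46032369, minus strand), the growth factor that drives blood vessel formation, had 36.3, 18.7 and 35.9 CPM in KO, from 822, 397 and 939 reads. It had 13.6, 29.6 and 28 CPM in HxD and 8.36, 29.9 and 18.5 CPM in V, against 4.56, 10.6 and 1.27 CPM in WT, the last from 91, 232 and 29 reads. All KO and HxD libraries lay above all WT libraries, and V 1 lay within the WT range.

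The mean of Vegfa was 30.3 ± 10.1 CPM in KO, 23.7 ± 8.81 in HxD, 18.9 ± 10.8 in V and 5.46 ± 4.70 in WT (SD, n = 3 each). Against WT the log2 fold change was 2.47 in KO (SE 0.63, 95% interval 1.19 to 3.75, edgeR adjusted p = 0.103), 2.12 in HxD (SE 0.62, 0.85 to 3.38, edgeR adjusted p = 0.338) and 1.79 in V (SE 0.61, 0.54 to 3.04, edgeR adjusted p = 0.701). These comparisons share the WT libraries, so a low WT level enters all 3, and 0 of them passed the threshold. In KO the adjusted p ranged from 0.00454 with DESeq2 to 0.368 over 14 other settings, and it passed in 5, which included edgeR without WT replicate 2 (log2 fold change 3.38, adjusted p = 0.00892) and without KO replicate 2 (2.72, 0.0307). In HxD it passed with DESeq2 (0.0296) and without WT replicate 2 (0.0423), in a range of 0.0296 to 0.658. The direction was the same in every setting, from 2.0 to 3.38 in KO and from 1.47 to 3.02 in HxD. The 3 mutants did not differ detectably from one another in Vegfa, with log2 fold changes of -0.35 for HxD against KO (-1.56 to 0.86), -0.68 for V against KO (-1.89 to 0.54) and -0.33 for V against HxD (-1.54 to 0.89).

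Bnip3 (chromosome 7, 138890836 to 138909519, minus strand), which encodes a mitochondrial protein that promotes mitophagy, had 13.4, 28.5 and 37.6 CPM in KO, 46.5, 31.6 and 42.6 in HxD and 35.7, 40.4 and 41.5 in V, against 23.5, 34.2 and 57.5 CPM in WT. Its groups overlapped throughout, with log2 fold changes of -0.54 in KO (95% interval -1.31 to 0.24), 0.07 in HxD (-0.70 to 0.84) and 0.03 in V (-0.74 to 0.80) and edgeR adjusted p of 0.771, 1 and 1. The exons of Bnip3 share 22.3% of their bases with a predicted gene on the opposite strand.

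Of the 9 genes other than Epas1, edgeR called 0 in KO, where it called 0.218% of all genes tested, 0 in HxD, where it called 0.034%, and 0 in V, where it called 0%. At an unadjusted p under 0.05 the count was 1 of 9 in each comparison, Vegfa each time, against a background of 8.3% of all genes in KO, 8.24% in HxD and 6.05% in V. In KO the libraries of 2 of 9 genes, Vegfa and Vhl, did not overlap with those of WT, against a background of 16.3% of all genes. The count was 2 of 9 in HxD, Vegfa and Egln1, against 12.5%, and 0 of 9 in V, against 11.8%. DESeq2 called 1 of the 9 in KO and in HxD, Vegfa in both, and 0 in V, and it called 1.95%, 1.49% and 0.565% of the genes it tested there. As 1 of 9 is 11.1%, the counts by unadjusted p lie near their background, while that of DESeq2 rests on Vegfa. The median log2 fold change of the 9 genes against WT was 0.13 in KO, 0.07 in HxD and 0.04 in V, beside 0.00, -0.02 and 0.01 over all genes tested.

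Between the mutants, edgeR called 0 of the 9 genes in HxD against KO, where it called 0.0068% of all genes, 0 in V against KO, where it called 0.0204%, and 0 in V against HxD, where it called 0%. At an unadjusted p under 0.05 the count was also 0 of 9 in each, against 4.67%, 4.1% and 5.07% of all genes. DESeq2 called 0 of the 9 genes in HxD against KO, where it called 0.893% of genes. The libraries did not overlap for 2 of 9 genes in HxD against KO, where Egln2 and Vhl were lower in HxD, beside 9.33% of all genes. The count was 1 of 9 in V against KO, where Vhl was lower in V, beside 10.3%, and 1 of 9 in V against HxD, where Hif1an was lower in V, beside 7.99%.

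**Figure D3:**
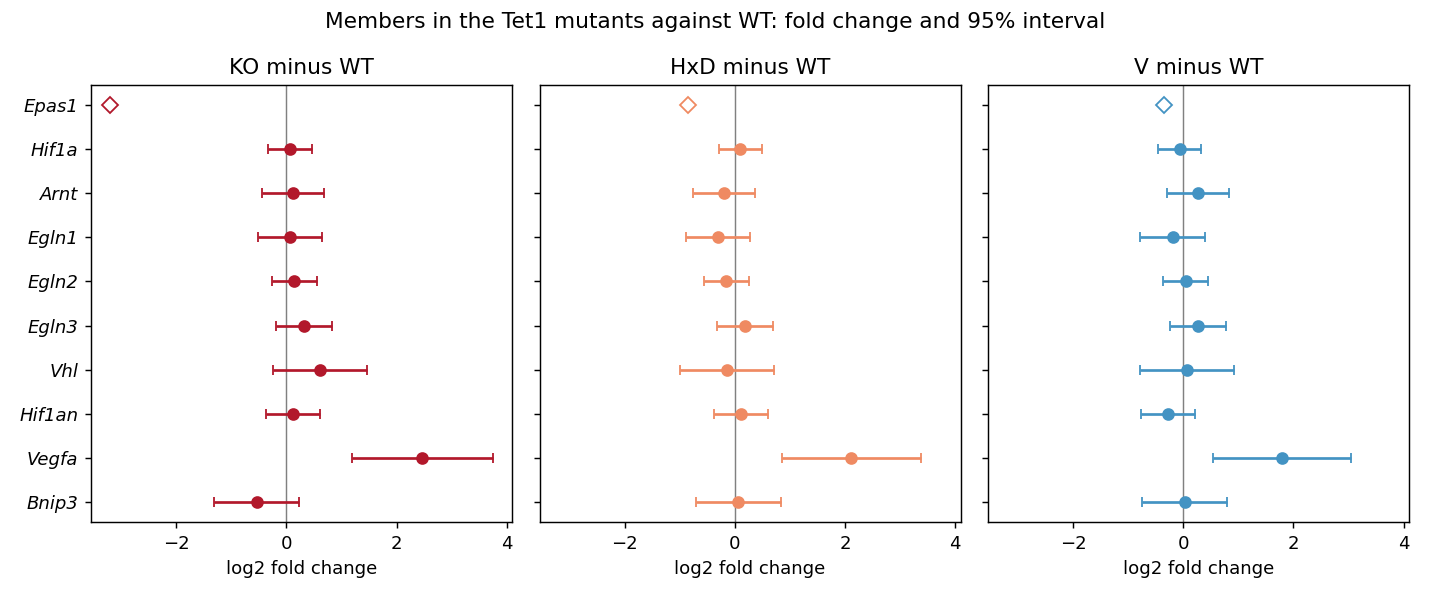
Log2 fold change against WT (horizontal axis) of each gene in KO, HxD and V (panels), with the 95% interval of the edgeR fit. Open diamonds mark Epas1, which was picked for its values and has no interval drawn, and Vegfa is the only gene drawn with intervals that exclude 0, at 2.47, 2.12 and 1.79.

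Per length, the pathway in WT was led by Hif1a and Egln2, with 39.9 and 38.2 CPM per kilobase of exon, followed by Egln3 with 21.3, Hif1an with 20.7, Bnip3 with 16.9 and Egln1 with 15.5. Epas1 with 7.82, Arnt with 7.35 and Vhl with 7.28 differed by less than their SDs of 1.31, 1.38 and 2.25. Vegfa was lowest with 1.27 ± 1.10 (SD, n = 3). In KO, Epas1 had 0.852 CPM per kilobase and Vegfa 7.06, so Epas1 was the lowest of the 10 there. These lengths come from GENCODE M21 and the annotation behind the counts is not given in the sources used here, so the order between genes is approximate.

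HIF binds the short hypoxia response element in the DNA of its targets. The 250 bases before a start site of 9 of the 10 genes, and of Pdk1, were read from RefSeq promoter windows in GRCm38.p6, and Epas1 had no entry. These start sites need not be those of GENCODE M21. The Hif1a window, 73907617 to 73907866, lies inside the gene as annotated there, 73901375 to 73947530, and not before its start. The core was searched as ACGTG or GCGTG on both strands. It was found in 38.6% of all 32851 windows and in those of 6 of the 9 genes, Hif1a, Arnt, Egln1, Egln2, Egln3 and Bnip3. Both forms of the core contain a CpG site, the letters CG. The windows of the 9 genes held 10 to 51 CpG sites each, beside a median of 6 over all windows. The shares with a match were not compared at equal CpG content. The windows of the 4 target genes that the results turn on are shown 5′ to 3′ on the gene's strand, with each match in capitals, to set Vegfa and Pdk1 beside the HIF targets Bnip3 and Egln3, whose groups overlapped with WT.
Vegfa, chr17:46032378-46032627, minus strand: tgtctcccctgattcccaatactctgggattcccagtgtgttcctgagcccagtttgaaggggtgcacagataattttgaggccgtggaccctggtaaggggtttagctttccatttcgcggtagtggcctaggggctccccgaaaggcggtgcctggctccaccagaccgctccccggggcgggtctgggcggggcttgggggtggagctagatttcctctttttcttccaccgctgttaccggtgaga
Pdk1, chr2:71872974-71873223, plus strand: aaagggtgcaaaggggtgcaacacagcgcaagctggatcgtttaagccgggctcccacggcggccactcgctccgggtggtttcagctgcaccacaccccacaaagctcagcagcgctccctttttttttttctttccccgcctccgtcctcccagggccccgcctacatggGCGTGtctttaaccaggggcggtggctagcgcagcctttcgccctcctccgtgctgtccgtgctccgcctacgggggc
Bnip3, chr7:138909507-138909756, minus strand: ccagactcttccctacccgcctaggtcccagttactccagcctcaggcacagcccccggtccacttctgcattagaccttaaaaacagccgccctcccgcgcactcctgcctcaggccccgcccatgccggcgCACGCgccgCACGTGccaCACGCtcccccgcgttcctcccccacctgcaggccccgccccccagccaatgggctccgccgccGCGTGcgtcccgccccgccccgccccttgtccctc
Egln3, chr12:54203875-54204124, minus strand: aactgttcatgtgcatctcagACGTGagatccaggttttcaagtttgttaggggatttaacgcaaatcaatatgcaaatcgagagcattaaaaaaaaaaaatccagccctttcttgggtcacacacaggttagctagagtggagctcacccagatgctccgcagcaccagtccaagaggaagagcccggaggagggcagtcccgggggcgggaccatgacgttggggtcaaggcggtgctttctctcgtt
The Bnip3 window held 5 matches, of which 2 overlap on opposite strands in CACGTG, those of Egln3 and Pdk1 1 each and that of Vegfa 0, which says only that these letters are not in this window. Vegfa, Pdk1 and Egln2 had a further window at a start site 7214, 1680 and 1074 bases downstream of the one used, which was the most upstream, and these held 2, 0 and 1 matches. The number of CpG sites, the substrate of DNA methylation, was 24 in Bnip3, 19 in Pdk1, 11 in Vegfa and 10 in Egln3, beside a median of 6 over all windows. No methylation was measured in these libraries.

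A wider view of the pathway came from 4 lists with 114 symbols, all found in the table, of which 106 were tested. They held other genes of the HIF pathway, hypoxia-induced genes of glucose uptake and glycolysis, other hypoxia-induced genes, and genes described as responding to EPAS1 more than to HIF1A in some cell type. In KO, edgeR called 1 of the 106, Pdk1, beside 0.218% of all genes tested. At an unadjusted p under 0.05 there were 9, or 8.49% against the background of 8.3%. In HxD 0 were called, beside 0.034% of all genes, and 10 were past the unadjusted level, or 9.43% against 8.24%. In V 0 were called, beside 0% of all genes, and 7 were past it, or 6.60% against 6.05%. The shares by unadjusted p lie near those of all genes. DESeq2 called Pdk1 and Tfrc in KO and Pou5f1 in HxD and in V. It called 1.95%, 1.49% and 0.565% of the genes it tested there.

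Pdk1 (chromosome 2, 71873224 to 71903858, plus strand), a kinase that shuts off pyruvate dehydrogenase and is a known HIF target, fell in KO. It had 76.1, 114 and 94.9 CPM in the KO libraries, against 193, 196 and 167 CPM in the WT libraries, and no KO library reached the lowest WT value. The means were 94.9 ± 18.8 CPM in KO and 185 ± 16.1 in WT (SD, n = 3 each), and the log2 fold change was -0.96 with an SE of 0.22 and an edgeR adjusted p of 0.0461. Pdk1 was listed among the hypoxia targets with its call in KO already known, so the call is no independent evidence about the list. The call ended with the stricter filter (0.0891), with these genotypes alone (0.0633), with WT 3 and V 3 set aside (0.119), with HxD 2 set aside as well (0.0947) and without KO replicate 1 (0.173), KO replicate 3 (0.104) or WT replicate 1 (0.0924), and the adjusted p ranged from 0.00104 to 0.173. Pdk1 had 144, 185 and 99.7 CPM in HxD and 126, 190 and 165 in V, and both groups overlapped with WT.

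The 20 tested genes of glycolysis had a median log2 fold change of 0.21 in KO, -0.10 in HxD and 0.09 in V, with 8, 11 and 9 of them negative, beside 49.5%, 51.6% and 48.9% of all genes tested. In KO, Pdk1 was the only one called, and Hk1 and Pfkp, named after their values were seen, were the only others at an unadjusted p under 0.05. The share of the list past that level was 15% in KO, 15% in HxD and 5% in V. Over all genes tested it was 8.3%, 8.24% and 6.05%. Hk1, a hexokinase gene, had 186, 64.9 and 114 CPM in KO, against 17.0, 62.6 and 37.1 CPM in WT. Its KO libraries lay above those of WT, with a log2 fold change of 1.65 ± 0.40 (SE) and an edgeR adjusted p of 0.0844. Pfkp, a phosphofructokinase gene, had 131, 50.7 and 64.9 CPM in KO, against 17.8, 58.3 and 37.0 CPM in WT. The libraries of Pfkp overlapped, with a log2 fold change of 1.12 ± 0.38 (SE) and an edgeR adjusted p of 0.328.

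The 29 tested genes of the HIF pathway had medians of -0.05, -0.06 and -0.15, with 0 called. The co-activator genes Ep300 and Crebbp had the smallest p of that list in KO. Ep300 averaged 242 ± 35.7 CPM in KO and 372 ± 93.1 in WT, for a log2 fold change of -0.62 ± 0.22 (SE) and an edgeR adjusted p of 0.364, and Crebbp 116 ± 13.3 CPM in KO and 170 ± 40.0 in WT, for a change of -0.56 ± 0.23 (SE) and an adjusted p of 0.485.

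The 37 tested genes among other hypoxia targets had medians of 0.04, 0.07 and 0.22 in KO, HxD and V, with 0 called. Tfrc, the transferrin receptor gene, averaged 201 ± 12.3 CPM in KO and 297 ± 41.8 in WT, for a log2 fold change of -0.56 ± 0.17 (SE) and an edgeR adjusted p of 0.221, while the DESeq2 adjusted p was 0.0289. Plod2, a collagen lysyl hydroxylase gene, averaged 14.2 ± 8.87 CPM in KO and 32.9 ± 10.03 in WT, for a change of -1.22 ± 0.51 (SE) and an adjusted p of 0.506. The 20 tested genes that prefer EPAS1 had medians of 0.24, 0.00 and 0.08, with 0 called. At an unadjusted p under 0.05 the count was 0 of 20 in KO, 2 in HxD and 1 in V, all of them higher than in WT, beside the backgrounds of 8.3%, 8.24% and 6.05%. Acer2, an alkaline ceramidase gene, averaged 15.9 ± 5.59 CPM in KO and 5.34 ± 3.60 in WT, for a change of 1.57 ± 0.83 (SE) and an adjusted p of 0.624, and Sod2, the mitochondrial superoxide dismutase gene, 114 ± 20.2 CPM in KO and 84.8 ± 26.2 in WT, for 0.42 ± 0.23 (SE) and an adjusted p of 0.639.

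Pou5f1 (chromosome 17, 35506018 to 35510772, plus strand), a described EPAS1 target in mice, had 398, 325 and 348 CPM in KO, against 307, 299 and 341 CPM in WT. KO and WT overlapped, with a log2 fold change of 0.18, an interval from -0.16 to 0.51 and an edgeR adjusted p of 0.916. It had 371, 526 and 494 CPM in HxD and 529, 591 and 430 CPM in V, and every library of these mutants lay above every WT library. The log2 fold change was 0.55 in HxD (0.22 to 0.89) with an edgeR adjusted p of 0.345, and 0.71 in V (0.37 to 1.05) with 0.293, while DESeq2 called both (adjusted p = 0.0296 and 0.00254). Pou5f1 is also the gene of the sorting reporter, and 14.1% of its exon bases overlap a predicted gene on the opposite strand.

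**Figure D4:**
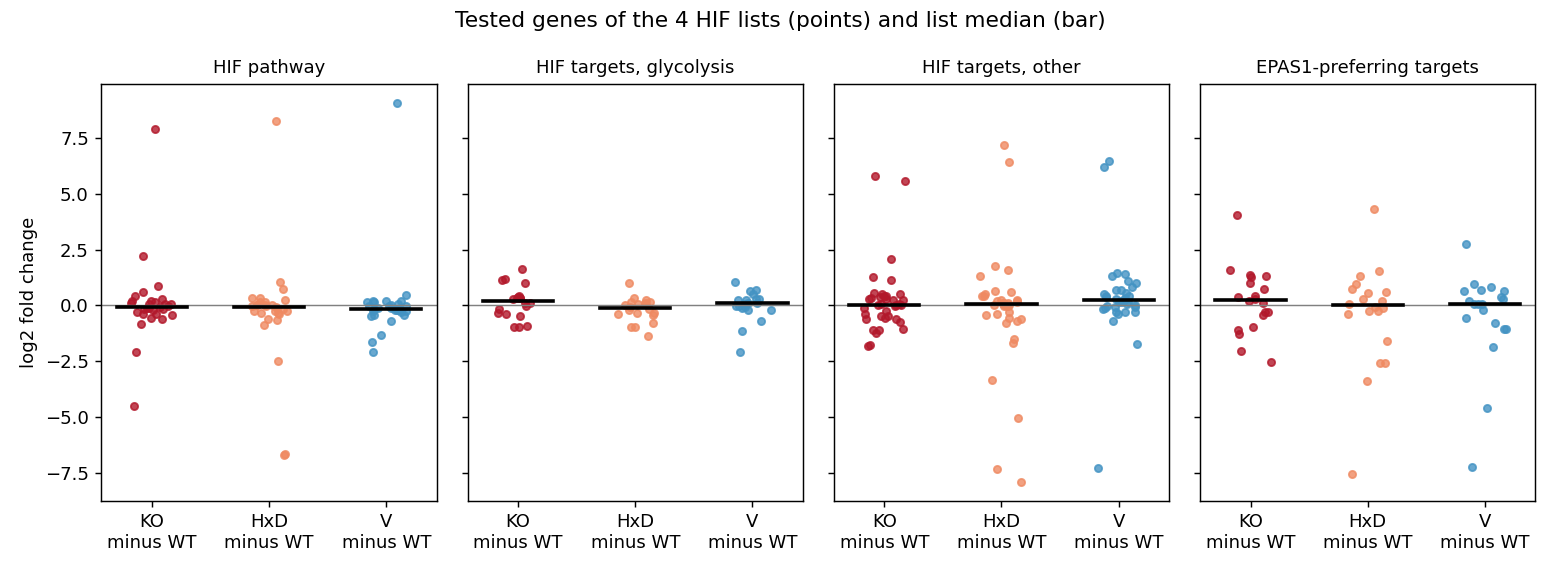
Log2 fold change (vertical axis) of each tested gene of the 4 lists (points) in KO, HxD and V against WT, with the list median as a bar. The medians lie between -0.15 and 0.24, and the points beyond 4 in either direction are genes at or near 0 CPM in a group, whose fitted values are not estimates of a fold.

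The pattern of Epas1 over the 12 libraries was most like that of Fbxo3, Ube2d1, Senp5, Ccdc172 and Samhd1, among 9249 other genes averaging at least 8 CPM. Likeness was the Pearson correlation of log2(CPM + 1), which was 0.92, 0.90, 0.88, 0.88 and 0.87 for these genes, beside a 99th percentile of 0.73 over all genes. Spearman's rho was 0.74, 0.80, 0.87, 0.82 and 0.78. The genes were chosen for this pattern over libraries that share genotypes, so it is a description with no test. Fbxo3, an F-box subunit of a ubiquitin ligase, averaged 25.9 CPM in KO, 42.3 in HxD, 52.6 in V and 58.5 in WT. Ube2d1, a ubiquitin-conjugating enzyme gene, averaged 37.7, 57.7, 59.4 and 68.8 CPM in the same order, and Samhd1, a dNTP hydrolase gene, 55.4, 88.6, 101 and 118 CPM. Senp5, a SUMO protease gene, averaged 25.2 CPM in KO, 41.7 in HxD, 39.0 in V and 52.9 in WT. Ccdc172, a coiled-coil protein gene, averaged 3.76, 10.02, 12 and 19.1 CPM in that order. In each of these 5 genes KO was lowest and WT highest, in group means. Among the other pathway genes the correlation with Epas1 ran from -0.73 for Vhl and -0.61 for Vegfa to 0.65 for Bnip3.

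**Figure D5:**
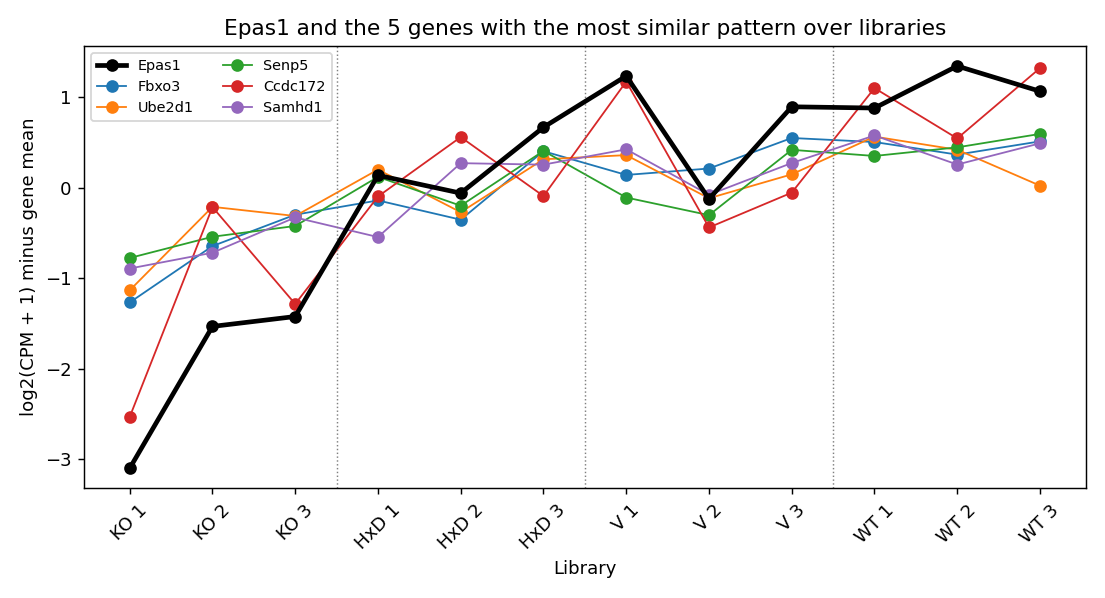
Deviation of log2(CPM + 1) from the gene's mean (vertical axis) in each library (horizontal axis, dotted lines between genotypes) for Epas1 in black and the 5 genes with the highest correlation to it, where lines only join the points of a gene. All 6 genes lie below their mean in the 3 KO libraries, with Epas1 lowest in KO 1.

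Epas1 is abundant in endothelial cells and Vegfa is made by several somatic cells of the testis, so the markers of such cells are given beside them. Of 14 endothelial markers, Pecam1 was high in all libraries and is also a known surface protein of early germ cells, with 217 ± 50.2 CPM in KO, 205 ± 51.7 in HxD, 133 ± 19.4 in V and 187 ± 29.2 in WT (SD, n = 3 each). Its V libraries, at 119 to 155 CPM, lay below all KO and all WT libraries, with log2 fold changes of -0.70 against KO (edgeR adjusted p = 0.686) and -0.49 against WT (adjusted p = 0.767). Tie1 and Emcn had 0 reads in all 12 libraries. The 13 markers without Pecam1 summed to 7.51 to 46.6 CPM in KO, 23.4 to 38.1 in HxD, 20.6 to 61.3 in V and 26.4 to 44.0 in WT, with 2 to 8 of them detected in a library. Cldn5 was the most abundant marker after Pecam1, with 12.2 ± 8.77 CPM in KO and 14.2 ± 4.57 in WT. The lowest sum, 7.51 CPM, was that of KO 1, which also had the lowest Epas1. KO 2 and KO 3 had sums of 46.6 and 33.3 CPM, within or above the WT range, with 6.16 and 6.72 CPM of Epas1, and the part of endothelial RNA in the level of Epas1 was not tested. The summed germ cell markers, given above, were lower in every mutant library than in every WT library. Dazl, Dppa3 and Ddx4 weighed most in that sum, averaging 1087, 757 and 672 CPM over all libraries, so it does not speak for each marker. Pou5f1, also among these markers, went the other way in group means, with 357 CPM in KO, 464 in HxD and 516 in V against 316 in WT. The part of the germ cell markers in the results was not tested.

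The 9 Sertoli cell markers summed to 40.1 to 81.1 CPM in KO, 12.4 to 57.0 in HxD, 21.2 to 486 in V and 21.1 to 169 in WT, with 4 to 9 detected in a library. The highest sums were in V 2 and WT 3. V 2 had the highest level of Vegfa among the V libraries, at 29.9 CPM, and WT 3 the lowest of all libraries, at 1.27 CPM. The 7 Leydig cell markers summed to 3.67 to 35.7 CPM in KO, 0.941 to 28.8 in HxD, 3.53 to 30.5 in V and 0.92 to 4.96 in WT, with 1 to 5 detected and Lhcgr at 0 in all libraries. The 8 interstitial markers summed to 5.42 to 25.3 CPM in KO, 16.3 to 22.9 in HxD, 1.81 to 34.6 in V and 6.88 to 11.3 in WT, with 2 to 6 detected and Lum at 0 in all. The median Leydig sum was 13.9 CPM in KO, 8.07 in HxD and 29.2 in V, against 4.27 in WT, and the median interstitial sum was 22.6, 21.6 and 12.5 CPM, against 10.6 in WT. Both medians were thus higher in each mutant than in WT, as was the mean of Vegfa. By library, the Leydig sums of KO 1, HxD 2 and V 1 lay within the WT range, with 36.3, 29.6 and 8.36 CPM of Vegfa. The Leydig sums of the other mutant libraries lay above it, with 13.6 to 35.9 CPM of Vegfa. The interstitial sums of KO 3 and V 2 lay below the WT range, with 35.9 and 29.9 CPM of Vegfa. Those of the other mutant libraries lay above it, with 8.36 to 36.3 CPM. The part of these cells in the level of Vegfa was not tested. The 8 macrophage and 7 erythroid markers summed to at most 36.2 and 17.8 CPM in any library.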

How the data were processed

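The authors deposited 1 table of whole-number read counts per gene symbol, with no normalization and 1 column per library. The submitters' processing notes name featureCounts 2.0.3, STAR 2.7.10b, Trim Galore 0.6.7, SAMtools 1.9 and FastQC, and the builds mm10 and GRCm39 without saying which was used for what. Neither the annotation nor the strand setting is given in the sources used here. The labels list 13 samples, of which 1 WT sample was not analysed here, and 1 column that names no sample was not used.

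Counts were tested with edgeR 4.0.16 in R 4.3.3, using its default expression filter, TMM scaling and a quasi-likelihood F-test fitted to 12 libraries with genotype as the only term. Tests were two-sided. Intervals of 95% come from that fit. Exon lengths and positions are from GENCODE M21 (GRCm38), and listed symbols absent from the table were matched through RefSeq synonyms. The fits were also run on simulated counts in which no library was made to stand apart, and the outcome of that run is not given here.

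Most genes were named by rule. These were the 10 members, called list genes (or the 2 with the smallest p in KO) and the 5 genes most like Epas1. The rule also named Tet1, Pou5f1 and the 2 most abundant endothelial markers. Hif3a, Hk1 and Pfkp fall outside this rule and were named after their values were seen. The members and lists were chosen with earlier results of these data known. Alternatives were RLE scaling, DESeq2 1.42.0, no expression filter, a stricter filter of 8 CPM on average, the 2 genotypes alone, a replicate block, leaving out WT 3 and V 3 together, or these and HxD 2 (chosen after seeing the data), and leaving out each library in turn. Totals of 13584484 to 29641963 counts limit the precision of genes with few reads.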

Additional observations from a re-analysis of the deposited data

How the results depend on the processing

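Across 70 results and 995 repeats under other settings, 876 kept their direction and their side of the threshold or moved little, 11 passed it anew, 7 lost it, 36 changed sign and 65 moved further, mostly counts. The fits differed most in how many genes they called. The main counts were 32 in KO, 5 in HxD and 0 in V against WT, and 1 in HxD against KO, 3 in V against KO and 0 in V against HxD. In that order the counts were 274, 213, 81, 128, 89 and 115 with DESeq2, 148, 67, 32, 8, 21 and 5 with no expression filter, and 15, 3, 0, 1, 2 and 0 with the stricter filter. They were 12, 2, 0, 1, 0 and 0 with 2 genotypes alone, 11, 2, 0, 1, 0 and 0 with WT 3 and V 3 set aside, 11, 3, 0, 1, 0 and 0 with HxD 2 set aside too, a setting chosen after seeing the data, and 15 to 95, 1 to 47, 0 to 10, 1 to 14, 2 to 18 and 0 to 11 when each library was left out in turn. Of the genes on the hypoxia lists, the calls in KO, HxD and V were 2, 1 and 1 with DESeq2, 3, 1 and 1 with no filter, 0, 0 and 0 with the stricter filter, the 2 genotypes alone or the 2 or 3 libraries set aside, and 0 to 3 in KO when a library was left out. Some of these settings are built on fewer genes or libraries, and the cause of the differences in counts was not tested for any setting.

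The replicate numbers showed no clear pairing of the libraries over the genes averaging at least 8 CPM. Deviations of same-numbered libraries correlated at -0.18 to 0.14, over 0.1 in 2 of 18 pairs, and 4 of 12 libraries correlated best with their own number. Correlations over so many genes cannot exclude a pairing that touches only some of them. With a replicate block the counts were 104, 45, 8, 8, 16 and 2 in the same order, with 3 list genes in KO. The block also took Vegfa in KO past the threshold (edgeR adjusted p = 0.00581).

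Near 0, signs turned. With WT 3 and V 3 set aside, the log2 fold change was -0.012 for Hif1a and -0.18 for Hif1an in KO, -0.18 for Hif1an in HxD and -0.027 for Vhl in V. With HxD 2 set aside too, it was -0.0040 for Hif1a and -0.17 for Hif1an in KO, -0.070 for Hif1a, 0.14 for Arnt and -0.14 for Hif1an in HxD and -0.025 for Vhl in V. Leaving out each library in turn gave ranges in KO of -0.11 to 0.20 for Hif1a, -0.071 to 0.27 for Arnt, -0.040 to 0.24 for Egln1 and -0.18 to 0.40 for Hif1an. In HxD they were -0.0068 to 0.21 for Hif1a, -0.41 to 0.12 for Vhl, -0.18 to 0.39 for Hif1an and -0.19 to 0.48 for Bnip3. In V they were -0.22 to 0.15 for Hif1a, -0.46 to 0.0062 for Egln1, -0.12 to 0.18 for Egln2, -0.17 to 0.34 for Vhl, -0.57 to 0.00084 for Hif1an and -0.23 to 0.44 for Bnip3. The log2 fold change of Epas1 stayed between -3.53 and -2.76 in KO and between -0.64 and -0.04 in V. A common biological coefficient of variation of 0.932 and 3 libraries a group limit what these fits can call.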
